A study of Mus musculus with 6 samples.

Results

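Proteasome genes were examined in regenerating mouse muscle as the rows of a read count table whose protein-coding symbol starts with Psma to Psmg followed by a number. Of the 16289 genes in the table, 47 met that rule. The annotation holds 50 such symbols, and Psma8, Psmb11 and Psme2b were not analysed here. Psmc3ip meets the rule by its name alone, since it encodes a recombination protein named for binding Psmc3, so 46 of the 47 encode parts, partners or assembly factors of the proteasome. The samples were tibialis anterior muscles, which lie along the shin. They came from male wild-type C57BL/6J mice aged 12 weeks, 14 days after an injection of glycerol. All 6 samples carried the injury. In the 3 samples called glycerol here the injection went with a control treatment, and in the 3 called glycerol+melatonin it went with melatonin, the night hormone of the pineal. The sources used here do not give the dose, route or timing of melatonin. The submitters call the samples of a group biological replicates, without saying whether each came from its own mouse, so the p-values measure the spread between these samples. Although the tissue label names tibialis anterior, the extraction text of the same labels names longissimus dorsi, a back muscle. Glycerol kills muscle fibres, which then regenerate while fat accumulates between them.

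The proteasome is the main machine that degrades ubiquitin-tagged proteins in the cell. Its core particle is a barrel of alpha rings, which form the gate, around beta rings, of which Psmb5, Psmb6 and Psmb7 carry the chymotrypsin-like, caspase-like and trypsin-like active sites. The regulatory particle, made of a ring of ATPases (Psmc genes) and of non-ATPase subunits (most Psmd genes), caps the barrel, recognises ubiquitin, removes it and unfolds the protein. Other caps are the PA28 activators, from Psme1, Psme2 and Psme3, and PA200, from Psme4. Interferon induces Psmb8, Psmb9 and Psmb10, which replace Psmb5, Psmb6 and Psmb7 in newly built immunoproteasomes and favour the peptides presented by MHC class I molecules. In muscle the ubiquitin-proteasome route removes myofibrillar proteins in atrophy and is remodelled in injury and regeneration.

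Total counts ran from 39310361 to 48879045 per library. Muscle fibre markers summed to between 91280 and 147500 CPM (read counts scaled to a common library size with TMM factors), and fast-fibre Myh4 stood at 12520 to 30790 CPM against 2.83 to 56.7 CPM for slow-fibre Myh7. Which of the 2 muscles named in the labels was taken was not tested. The quasi-likelihood test of edgeR was run on 16259 genes, with p adjusted by Benjamini-Hochberg over all of them and a threshold of 0.05, and 12 genes passed (0.0738%). That count moved to 6 without the library of glycerol sample 1, to 27 without glycerol sample 3, to 25 without glycerol+melatonin sample 1 and to 24 without glycerol+melatonin sample 3.

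Transcripts of the proteolytic core and of the immunoproteasome stood higher in the glycerol+melatonin samples in their estimates, and those of the regulatory particle did not, but no proteasome gene passed the test. The median log2 fold change (glycerol+melatonin over glycerol) was 0.70 over the 3 immunoproteasome genes, 0.21 over the 14 core genes, 0.21 over the 7 assembly chaperones, -0.05 over the 4 activators and -0.08 over the 17 regulatory particle genes. Over all genes tested it was 0.02. Of the 47 estimates 29 lay above 0 and 18 below (42 and 5 with library size alone). The smallest adjusted p of the 47 was 0.1345, for Psmg4. At an unadjusted p under 0.05 there were 11 members on the higher side, against 10.1% of all genes, and 1 on the lower side, against 9.39% of all genes. Leaving out 1 library moved the 11 to 3 without glycerol sample 1, 5 without glycerol sample 2, 14 without glycerol sample 3, 7 without glycerol+melatonin sample 1 and 4 without glycerol+melatonin sample 2. In 10 members every glycerol+melatonin sample stood above every glycerol sample, which held for 13.6% of all genes. The reverse held for 1 member, against 12.5% of all genes. Of the other tools, DESeq2 called 1 member higher, against 2.25% of genes, and limma-voom with sample weights also called 1, against 0.615% of genes. Both calls were Psmg4. In whole muscle, fewer cells of a type and less RNA per cell cannot be told apart.

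**Figure D1:**
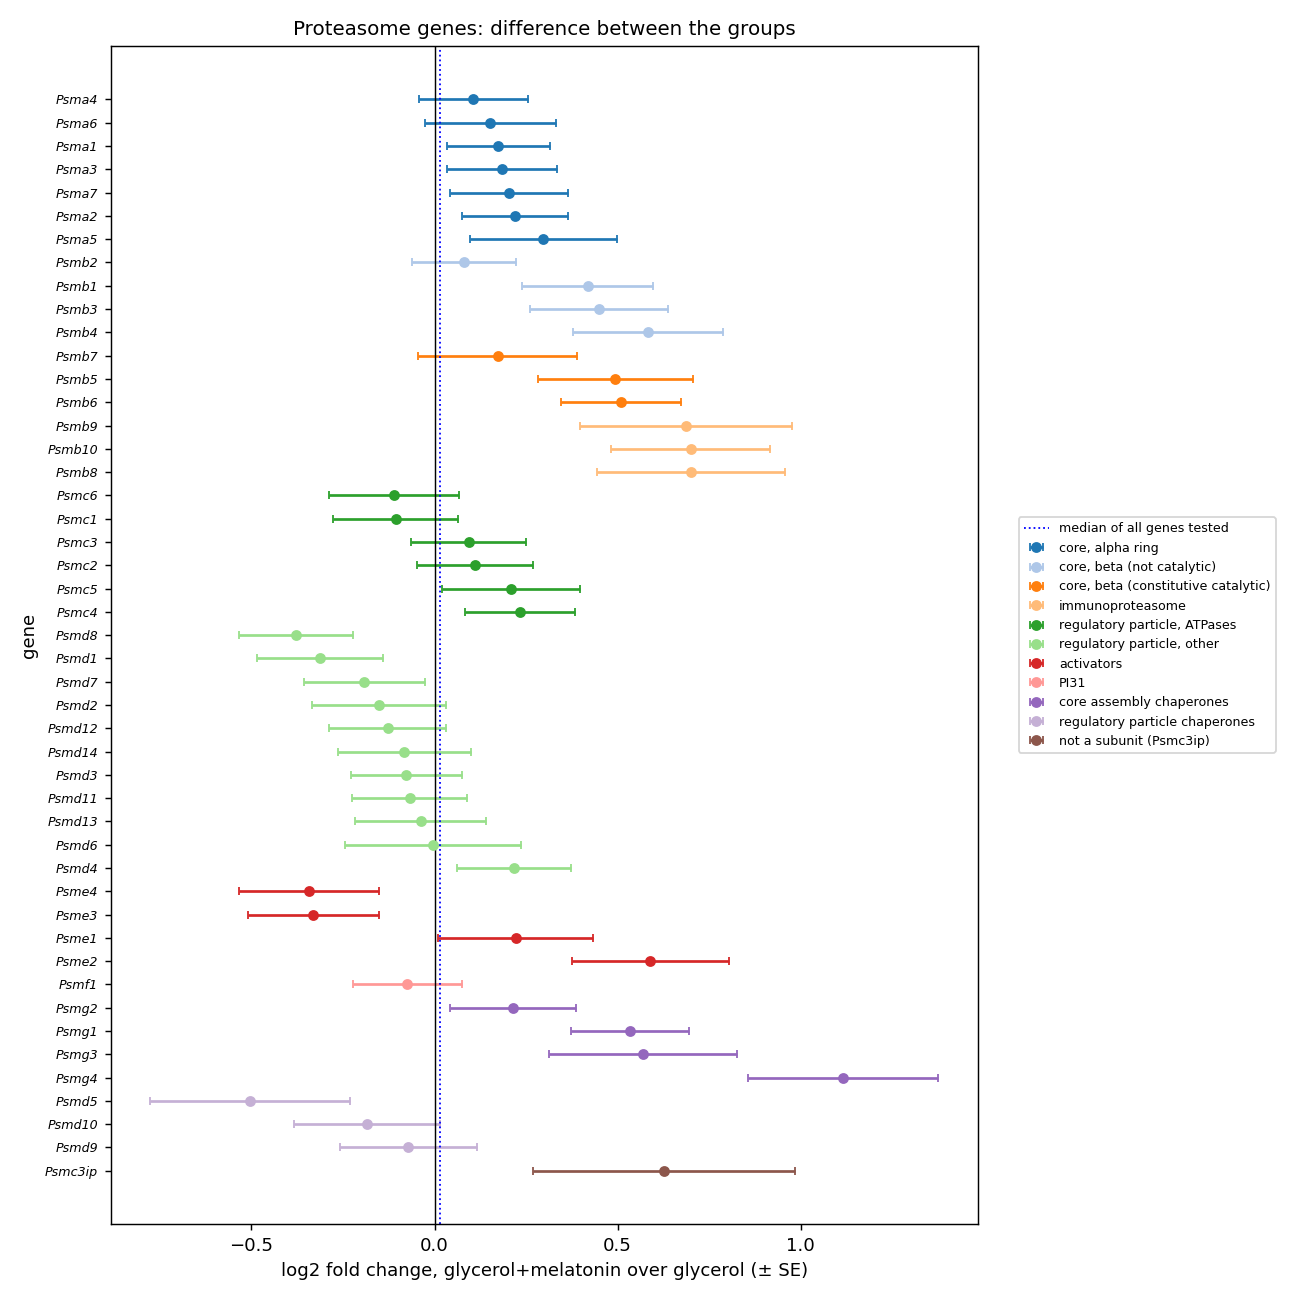
Log2 fold change (glycerol+melatonin over glycerol) of each of the 47 genes on the x axis, with points for the estimate, bars for its SE and colours for the class of subunit. All 17 core and immunoproteasome genes lie right of 0, and 12 of the 17 regulatory particle genes lie left of it.

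The class levels differed between samples within a group as well. Summed over the 47 genes, the level was 3502, 3683 and 4085 CPM in the glycerol samples and 4296, 4169 and 3539 CPM in the glycerol+melatonin samples. Glycerol+melatonin sample 3 therefore stood near the 2 lowest glycerol samples. Glycerol sample 1 held the lowest level of 17 of the 47 genes and glycerol+melatonin sample 3 that of 15, while glycerol+melatonin sample 1 held the highest level of 14. In the immunoproteasome the order was another: all 3 genes had their highest level in glycerol+melatonin sample 3.

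**Figure D2:**
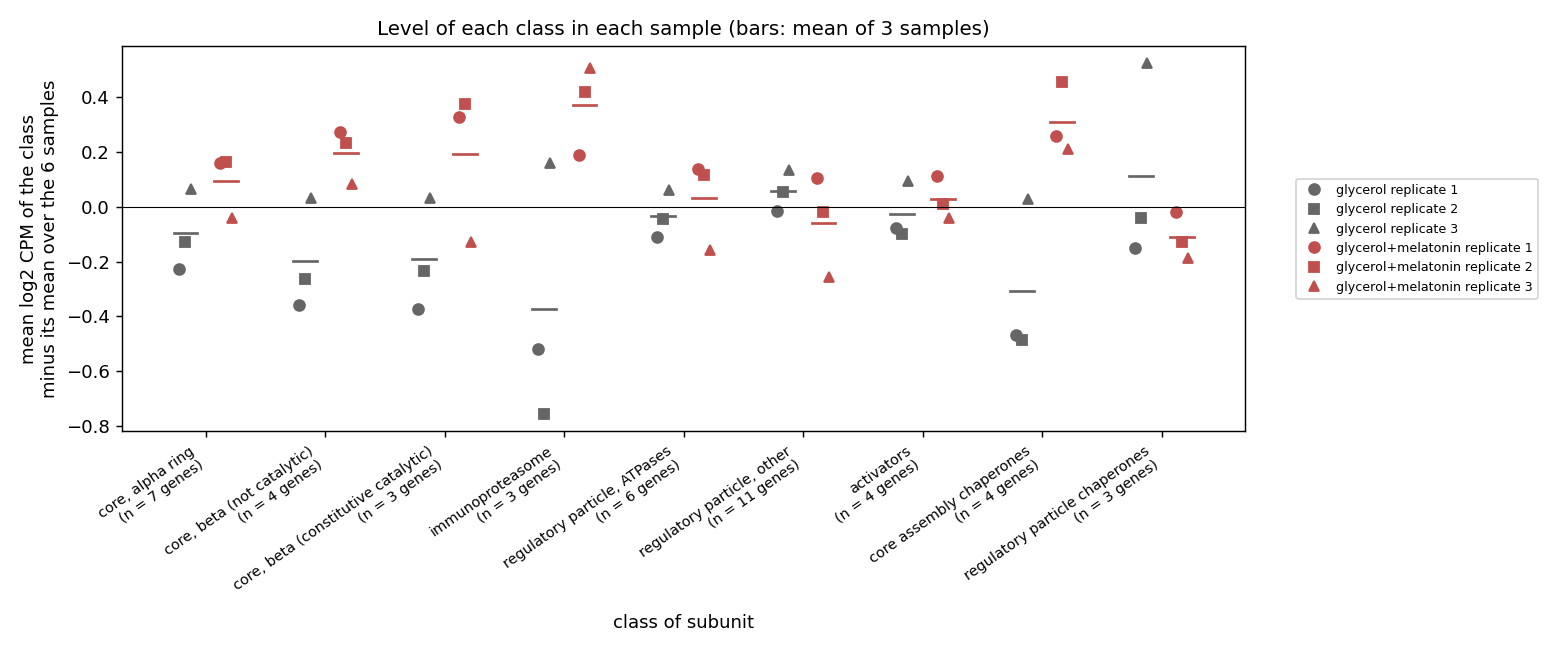
Mean log2 CPM of each class of subunit in each sample, minus its mean over the 6 samples, with grey for glycerol, red for glycerol+melatonin and bars for the mean of 3 samples. Glycerol+melatonin sample 3 (red triangles) is the lowest of the 6 in both regulatory particle classes and the highest in the immunoproteasome.

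All 14 core particle genes had an estimate above 0, with a range from 0.08 for Psmb2 to 0.58 for Psmb4. After corrections for transcript length 10 lay above 0 and 4 below, and with CCDS lengths (lengths of the transcripts with a consensus coding sequence) 8 above and 6 below. In 6 of the 14 the groups did not overlap, with the glycerol+melatonin samples higher, against 13.6% of all genes. The 7 alpha ring genes had a median of 0.18, and the 7 beta ring genes spread more widely. Summed over the 14 genes, the level was 1202, 1299 and 1542 CPM in the glycerol samples, against 1773, 1784 and 1464 CPM in the glycerol+melatonin samples. The groups overlapped in this sum, since glycerol+melatonin sample 3 lay below glycerol sample 3. Among the alpha ring genes the 3 with the smallest p were Psma2, Psma5 and Psma7. Psma2 had 61.5, 66.7 and 69.3 CPM in glycerol against 76.1, 83.9 and 70.2 CPM in glycerol+melatonin, with no overlap (log2 fold change 0.22 ± 0.14 SE, edgeR adjusted p = 0.4159). Psma5 had 42.5, 44.8 and 59.3 CPM against 59.7, 72.3 and 48.2 CPM (0.30 ± 0.20, edgeR adjusted p = 0.4315). The value of glycerol+melatonin sample 3 lay inside the glycerol range. Psma7 had 65.0, 72.5 and 88.4 CPM against 89.5, 88.8 and 81.7 CPM (0.20 ± 0.16, edgeR adjusted p = 0.4979). The other 4 alpha ring genes lay between 0.11 and 0.18. Psma1 and Psma3 also had no overlap, though Psma3 was almost level in sample 3 of each group, at 119.6 CPM in both.

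The non-catalytic beta subunits, which complete the beta rings beside the active ones, held the largest core difference. Psmb4 had 84.0, 96.3 and 128 CPM in glycerol against 156, 177 and 129 CPM in glycerol+melatonin (1.498-fold, log2 fold change 0.58 ± 0.21, edgeR adjusted p = 0.1963). The groups just failed to touch, as glycerol sample 3 and glycerol+melatonin sample 3 were almost level. Psmb3 had 72.2, 77.4 and 109 CPM against 125, 120 and 109 CPM (0.45 ± 0.19, edgeR adjusted p = 0.2449). Psmb1 had 90.7, 97.7 and 129 CPM against 148, 147 and 129 CPM (0.42 ± 0.18, edgeR adjusted p = 0.2493). In these genes sample 3 of each group met the other group, and samples 1 and 2 of each stood apart. Psmb2 was nearly level (0.08 ± 0.14).

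Promoter sequences could be read for 40 of the 47 genes from RefSeq (GRCm38.p6), in windows of 250 bases before to 50 bases after the start site, and 4 motifs were searched on both strands. The antioxidant response element core TGACNNNGC, the site through which NRF1 and NRF2 act, was in the window of 6 of the 40 members (15%) and of 13.99% of all genes. The CCAAT box, CCAAT, read by NF-Y, was in 14 members (35%) and 41.06% of all genes. The interferon-stimulated response element, searched as GAAA, any 2 bases and GAAA, was in 5 members (12.5%) and 3.993% of all genes. The gamma-activated site, searched as TTCNNNGAA, was in 3 members (7.5%) and 9.554% of all genes. These are letter matches, not measured binding. The promoters of Psmb5 and Psmb6 are shown because they were the core genes with the antioxidant response element letters (in capitals). That of Psmb3 is shown as the core gene with both CCAAT boxes and the interferon-stimulated letters (both in capitals, the latter on the reverse strand). Psmd4, of the regulatory particle, held both motifs as well and is not shown. The stretch of Psmb5 is chr14:54618023-54618245 on the minus strand, that of Psmb6 is chr11:70525107-70525356 on the plus strand and that of Psmb3 is chr11:97703184-97703398 on the plus strand. Each ends before the first annotated exon or RefSeq start site and runs 5′ to 3′.
Psmb5: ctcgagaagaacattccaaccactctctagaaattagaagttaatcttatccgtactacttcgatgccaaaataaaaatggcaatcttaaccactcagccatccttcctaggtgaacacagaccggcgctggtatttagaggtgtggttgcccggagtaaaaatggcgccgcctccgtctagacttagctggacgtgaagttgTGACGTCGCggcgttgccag
Psmb6: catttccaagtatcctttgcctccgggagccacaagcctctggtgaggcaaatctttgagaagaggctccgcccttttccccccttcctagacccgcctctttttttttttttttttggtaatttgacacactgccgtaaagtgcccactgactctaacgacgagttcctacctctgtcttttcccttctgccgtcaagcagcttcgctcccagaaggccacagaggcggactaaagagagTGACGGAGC
Psmb3: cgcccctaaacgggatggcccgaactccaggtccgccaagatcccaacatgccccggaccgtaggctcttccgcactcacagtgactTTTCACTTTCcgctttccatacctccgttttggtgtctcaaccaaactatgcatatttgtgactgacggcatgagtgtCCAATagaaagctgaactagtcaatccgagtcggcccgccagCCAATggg
In the Psmb5 promoter the match begins 47 bases before the RefSeq start, in that of Psmb6 9 bases before it. Of the immunoproteasome genes, Psmb8 held the gamma-activated letters, 97 bases before its RefSeq start. None of the immunoproteasome genes held the interferon-stimulated letters as searched, which were in the windows of Psmb3, Psmd4, Psmd9, Psme1 and Psmg4.

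The catalytic pairs compare the constitutive subunits with the immunoproteasome subunits that take their places. Psmb5 (chymotrypsin-like) had 111, 113 and 150.2 CPM in glycerol against 184, 209 and 134 CPM in glycerol+melatonin (log2 fold change 0.49 ± 0.21, edgeR adjusted p = 0.2509). The groups overlapped through glycerol+melatonin sample 3. Psmb6 (caspase-like) had 120.0, 133 and 149 CPM against 207, 197 and 167 CPM (0.51 ± 0.16, edgeR adjusted p = 0.1817), with no overlap. Psmb7 (trypsin-like) had 127, 150.5 and 176 CPM against 190.5, 195 and 125 CPM (0.17 ± 0.22, edgeR adjusted p = 0.6874). Its lowest value of all was that of glycerol+melatonin sample 3. Psmb7 shares 405 exon bases with Nek6 on the opposite strand, and strand use in the counting is not given.

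The immunoproteasome genes had the largest class median, and their 3 estimates were almost alike. Psmb8 (chromosome 17, 34197721 to 34201454, GRCm38) had 12.3, 9.58 and 18.7 CPM in glycerol against 18.6, 22.1 and 25.4 CPM in glycerol+melatonin. That is 1.62-fold (log2 fold change 0.70 ± 0.26, edgeR adjusted p = 0.2018). Glycerol sample 3 lay level with the lowest treated sample. Psmb9 (chromosome 17, 34181987 to 34187764) had 6.60, 4.79 and 10.9 CPM against 10.6, 12.6 and 12.7 CPM, which is 1.61-fold (0.69 ± 0.29, edgeR adjusted p = 0.2459). Again only glycerol sample 3 reached into the treated range. Psmb10 (chromosome 8, 105935735 to 105938444) had 8.70, 9.37 and 14.3 CPM against 15.8, 18.0 and 18.7 CPM, which is 1.62-fold (0.70 ± 0.22, edgeR adjusted p = 0.1757), with no overlap. In glycerol sample 3 the 4 fat cell markers summed to 299.8 CPM, against 40.2 to 144 CPM in the other samples, and the part of fat cells was not tested. Without glycerol sample 3 the class median was 1.01, and without glycerol sample 2 it was 0.50. Psmb9 lies head to head with Tap1, the peptide transporter gene, and shares 212 exon bases with it on the opposite strand. Tap1 itself was level, with 11.8, 10.4 and 12.4 CPM against 10.9, 9.95 and 12.2 CPM.

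Immunoproteasome genes are abundant in leukocytes, so markers of leukocytes and of other cells of muscle were read beside them. Of 6 general leukocyte markers 3 had estimates above 0 and 3 below, and their summed level was 124.5 to 158 CPM in glycerol and 124.7 to 135 CPM in glycerol+melatonin. The 10 macrophage markers summed to 610 to 864 CPM and 607 to 845 CPM. The 9 T and NK cell markers summed to 9.27 to 18.8 CPM and 9.83 to 19.8 CPM, the 3 B cell markers to 1.24 to 3.31 CPM and 1.79 to 2.72 CPM, and the 5 dendritic cell markers to 11.1 to 14.5 CPM and 10.4 to 12.9 CPM. Those 5 lists overlapped between the groups. The 6 endothelial markers summed to 795 to 953 CPM and 705 to 1174 CPM, with the highest value in glycerol+melatonin sample 3. Fibro-adipogenic progenitor markers (6 genes of muscle stroma) summed to 775 to 1114 CPM and 674 to 721 CPM, without overlap. Of that sum Dcn alone held 501 to 822 CPM and 345 to 397 CPM. Taken singly, 3 of the 6 had estimates below 0 and no overlap, against 12.5% of all genes on the lower side. The other 3 had estimates above 0 and overlapped. DESeq2 called 1 of the 6 lower, against 2.88% of all genes. The sum of the 4 neutrophil markers measured did not overlap, with 4.21 to 4.92 CPM against 5.35, 8.58 and 21.1 CPM, and all 4 estimates lay above 0. Taken singly, 2 of the 4 had no overlap, against 13.6% of all genes on the higher side, and the others overlapped. Of these, S100a9 was listed at 0 in glycerol sample 2, and S100a8 and Ly6g were not analysed here. The part of these cell types in the immunoproteasome levels was not tested.

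Per length, each constitutive catalytic transcript exceeded its immunoproteasome counterpart in every sample. On the scale of CPM per kilobase of the longest transcript, Psmb5 stood at 139 ± 24.5 in glycerol and 195.5 ± 42.2 in glycerol+melatonin (SD, n = 3), and Psmb8 at 7.10 ± 2.46 and 11.5 ± 1.79. The level of Psmb8 was 5.21%, 3.999% and 5.87% of that of Psmb5 in the glycerol samples and 4.75%, 4.98% and 8.90% in the glycerol+melatonin samples. The groups overlapped, and the highest share was that of glycerol+melatonin sample 3. There Psmb5 was the lowest of its group and Psmb8 the highest of all samples. For Psmb9 per Psmb6 the shares were 1.84%, 1.21% and 2.46% against 1.72%, 2.14% and 2.55%, which also overlapped. For Psmb10 per Psmb7 they were 14.9%, 13.5% and 17.7% against 18.0%, 20.1% and 32.7%, without overlap. Over all 3 pairs the share was 5.35% ± 1.02 in glycerol and 6.62% ± 1.86 in glycerol+melatonin (SD, n = 3), a difference within the spread between samples. Psmb7 has a long annotated transcript, and on its shorter CCDS transcript the Psmb10 share was 6.26% ± 0.865 and 9.61% ± 3.23.

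**Figure D3:**
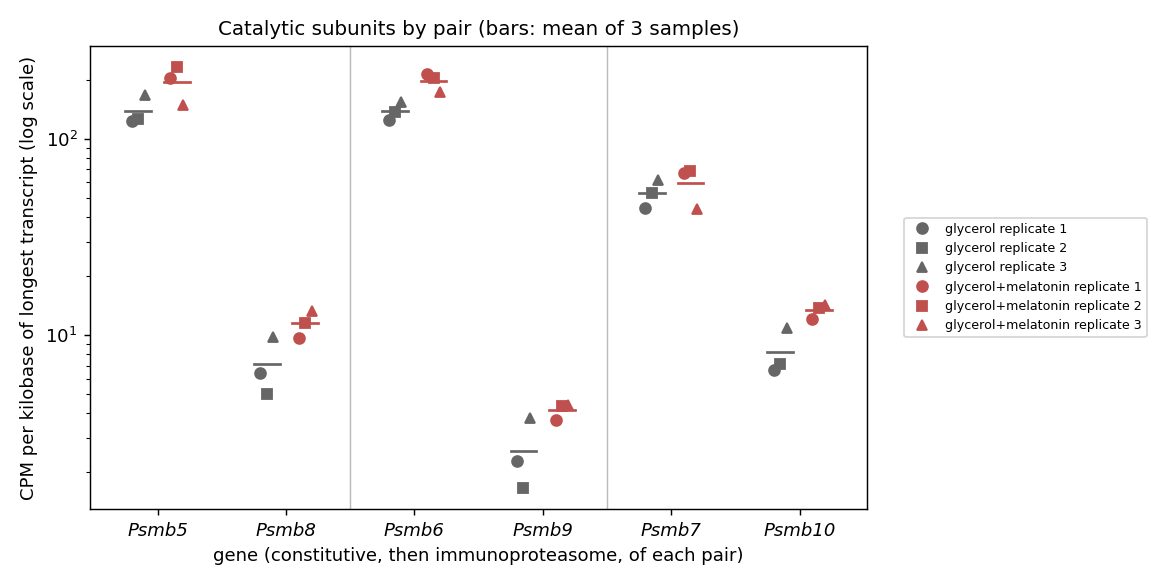
CPM per kilobase of the longest transcript (log scale) of the 3 constitutive catalytic genes, each beside its immunoproteasome counterpart, in every sample, with bars for the mean of 3 samples. Psmb8, Psmb9 and Psmb10 lie below Psmb5, Psmb6 and Psmb7 in all 6 samples.

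The regulatory particle lay near 0 as a class. Of its 17 genes, 5 had estimates above 0 and 12 below, in a range from -0.38 to 0.23. In 1 gene every glycerol+melatonin sample lay below every glycerol sample, against 12.5% of all genes. The reverse held for 0 genes, against 13.6% of all genes. Summed levels were 1880, 1949 and 2075 CPM in glycerol and 2066, 1946 and 1663 CPM in glycerol+melatonin. Glycerol+melatonin sample 3 held the lowest level of 11 of the 17 genes. The 10 muscle fibre markers were also lowest there in sum, at 91280 CPM against 117600 to 147500 CPM in the other samples, and their part in the result was not tested. Without that library 13 estimates lay above 0 and 4 below, and the class median was 0.04. With library size alone in place of TMM factors, the median of all genes moved from 0.02 to 0.23, and 15 of the 17 estimates lay above 0 with a class median of 0.13.

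Among the ATPases, which unfold substrates and thread them into the core, 4 of 6 estimates lay above 0. Psmc4 had 105, 96.2 and 98.4 CPM in glycerol against 117, 105 and 130.5 CPM in glycerol+melatonin (log2 fold change 0.23 ± 0.15, edgeR adjusted p = 0.4110). Psmc5 had 105, 118 and 141 CPM against 147, 161 and 114 CPM (0.21 ± 0.19, edgeR adjusted p = 0.5566). Psmc2 had 86.3, 102.5 and 103 CPM against 110.0, 113 and 91.8 CPM (0.11 ± 0.16, edgeR adjusted p = 0.7321). All 3 overlapped between the groups. Among the 11 non-ATPase subunits 10 estimates lay below 0. Psmd8, a lid subunit, had 224, 195 and 242 CPM against 178, 162 and 168 CPM, which is 1.299-fold lower with no overlap (-0.38 ± 0.15, edgeR adjusted p = 0.2366). It was the one member on the lower side at an unadjusted p under 0.05. Psmd1, the largest scaffold of the base, had 139, 148 and 127 CPM against 132, 107 and 94.4 CPM (-0.31 ± 0.17, edgeR adjusted p = 0.3473). Psmd4, a ubiquitin receptor, was the exception above 0, with 85.4, 93.9 and 111 CPM against 119, 107 and 111 CPM (0.22 ± 0.16, edgeR adjusted p = 0.4590).

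The balance of core to regulatory particle transcripts did not overlap between the groups. Summed core CPM were 63.9%, 66.6% and 74.3% of summed regulatory particle CPM in glycerol, against 85.8%, 91.7% and 88.0% with melatonin. The means were 68.3% ± 5.40 against 88.5% ± 2.96 (SD, n = 3). Per kilobase of the longest transcript the ratio was 102% ± 6.81 against 133% ± 4.39. Each gene has the same length in all samples, so that ratio is not corrected for the trend of fold change with length given below. The median length was 1220 bases for the core and 1983 for the regulatory particle. The core median fold change exceeded that of the regulatory particle by 0.29, and by 0.27 to 0.37 when each library was left out in turn. Under the other settings tried that difference lay between 0.25 and 0.33. Since the contrast of these classes was set with results of these data known, it is given without a test.

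Of the 4 activators, Psme2 and Psme1 had estimates above 0 and Psme3 and Psme4 below, and none passed under edgeR. Psme2, which forms the interferon-induced PA28 alpha-beta ring with Psme1, had 17.9, 17.7 and 29.1 CPM in glycerol against 30.8, 33.4 and 33.0 CPM in glycerol+melatonin. That is 1.504-fold with no overlap (log2 fold change 0.59 ± 0.21, edgeR adjusted p = 0.2010). Psme1 had 34.9, 33.4 and 55.7 CPM against 51.5, 46.2 and 46.8 CPM (0.22 ± 0.21, edgeR adjusted p = 0.5799), with glycerol sample 3 above all treated samples, and its estimate was -0.0079 with CCDS lengths. Psme3, the nuclear PA28 gamma, had 89.5, 74.2 and 59.9 CPM against 62.7, 53.5 and 61.5 CPM (-0.33 ± 0.18, edgeR adjusted p = 0.3417). Psme4, the PA200 cap, had 151, 181 and 139.5 CPM against 143, 129.5 and 98.6 CPM (-0.34 ± 0.19, edgeR adjusted p = 0.3503). Both overlapped between the groups. Psmf1, which encodes the inhibitor PI31, was nearly level with 19.1, 21.1 and 19.6 CPM against 18.2, 17.7 and 20.9 CPM (-0.07 ± 0.15, edgeR adjusted p = 0.8155).

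Of the 7 assembly chaperones none passed under edgeR. The 4 chaperones of the core, Psmg1 to Psmg4, all had estimates above 0 (median 0.55), and the 3 of the regulatory particle, Psmd5, Psmd9 and Psmd10, all lay below it (median -0.18), though with library size alone Psmd9 was at 0.11 and Psmd10 at 0.00. Over all 7, estimates above and below 0 were 4 and 3, but 6 and 1 without glycerol sample 3 and 5 and 2 without glycerol+melatonin sample 3. The longest transcripts had a median of 1172 bases in the 4 core chaperones and 2634 bases in the 3 others. After the correction for transcript length the median over all 7 was 0.0037, with 4 above 0 and 3 below. With CCDS lengths it was -0.034, with 3 above 0 and 4 below. The correction for transcript length put Psmg1 at 0.28, Psmg2 at 0.0037, Psmg3 at 0.53 and Psmg4 at 0.82. Psmg4 had 2.92, 2.79 and 4.83 CPM in glycerol against 6.37, 8.30 and 8.13 CPM in glycerol+melatonin, with no overlap. It was 2.17-fold higher in its group means (log2 fold change 1.115 ± 0.26, edgeR adjusted p = 0.1345), and passed under DESeq2 (1.10, adjusted p = 0.007058) and limma-voom with sample weights (1.29, adjusted p = 0.04553). Its adjusted p ranged from 0.007058 to 0.4203 over 18 other settings. Psmg1 had 7.63, 8.18 and 9.41 CPM against 12.1, 12.6 and 11.9 CPM (0.53 ± 0.16, edgeR adjusted p = 0.1710), also with no overlap. Psmg3 had 5.68, 5.37 and 8.30 CPM against 9.34, 12.1 and 7.23 CPM (0.57 ± 0.26, edgeR adjusted p = 0.2661). On the other side, Psmd5 had 13.4, 13.9 and 26.7 CPM against 12.1, 12.0 and 14.0 CPM (-0.50 ± 0.27, edgeR adjusted p = 0.3414). Its difference lay in glycerol sample 3, and without that library the estimate was -0.10. Psmd10 had 9.04, 10.6 and 13.9 CPM against 10.7, 9.67 and 9.09 CPM (-0.18 ± 0.20, edgeR adjusted p = 0.6289), and Psmd9 had 21.5, 22.3 and 28.7 CPM against 26.5, 23.5 and 19.0 CPM (-0.07 ± 0.19, edgeR adjusted p = 0.8613).

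As levels per kilobase of the longest transcript, the median core gene stood at 61.5 in glycerol and 76.2 in glycerol+melatonin, and the median regulatory particle gene at 51.3 and 49.5. Medians for the activators were 23.3 and 23.2. Assembly chaperones lay lower, at 7.80 and 8.74, and the immunoproteasome lay at 7.10 and 11.5. In glycerol the core ran from 22.6 for Psma2 to 139 for Psmb5, with Psmb6 at 139 ± 14.9, so on this length Psmb5 and Psmb6 did not differ beyond their spread. The order depended on the length used. Per kilobase of all annotated exons of the gene, Psmb6 stood at 71.5 ± 7.70 and Psmb5 at 139 ± 24.5 in glycerol. The regulatory particle ran from 24.1 for Psmd11 to 111 for Psmd8. Psmd8 had the highest level of its class in glycerol, and in glycerol+melatonin, where it was at 85.4 ± 4.13, Psmc3 had it at 105. Per kilobase of all annotated exons Psmc5 was the highest in both groups, at 87.2 and 101.

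Transcript length moved with these differences. Across the whole table the estimates were higher for shorter genes: the median fold change was 0.42 over all genes with a longest transcript up to 1000 bases, 0.21 from there to 1500 bases, and -0.14 above 5000 bases. Core transcripts had a median length of 1220 bases, immunoproteasome transcripts 1907, regulatory particle transcripts 1983 and all genes 3118. Across the 46 genes Spearman's rho of fold change on length was -0.485, and across 16230 genes it was -0.318. These are descriptions over genes that share the same libraries. After a correction for transcript length the core median was 0.19 with 10 estimates above 0 and 4 below, and with CCDS transcript lengths it was 0.12 with 8 above and 6 below. For the immunoproteasome the corrected medians were 0.59 and 0.51, with all 3 above 0. Regulatory particle medians were -0.14 and -0.13. Psmb5 was at 0.22 and Psmb6 at 0.24 after the correction for the longest transcript, and Psmg4, the shortest of the 47 at 555 bases, at 0.82.

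**Figure D4:**
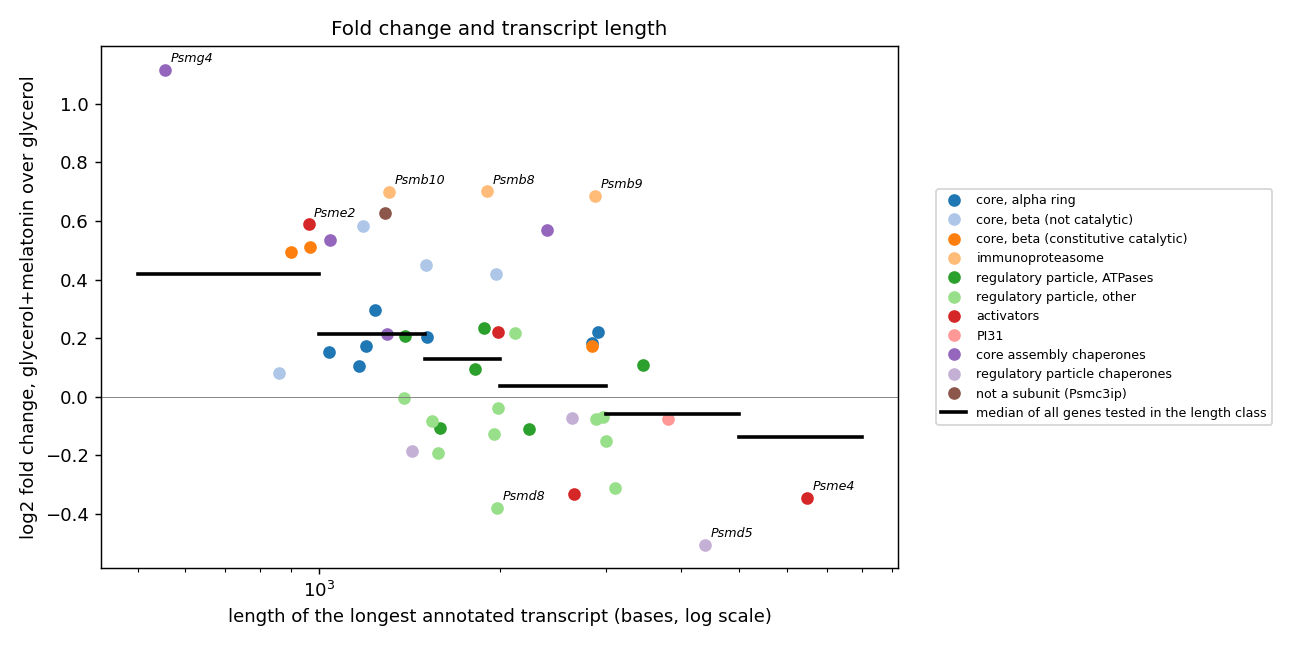
Log2 fold change (glycerol+melatonin over glycerol) of each proteasome gene against the length of its longest transcript in bases (log scale), coloured by class, with black lines for the median of all genes tested in each length class. The black lines go from 0.42 for the shortest genes to -0.14 for the longest, and the 3 immunoproteasome genes lie above them.

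Genes around the proteasome were read from 7 lists with 67 genes tested, of which 33 had estimates above 0 and 34 below (43 and 24 with library size alone), and none passed under edgeR. At an unadjusted p under 0.05 there were 7 on the higher and 8 on the lower side, against 10.1% and 9.39% of all genes. The groups did not overlap for 10 higher and 11 lower, against 13.6% and 12.5% of all genes. DESeq2 called 4 of them lower, against 2.88% of all genes, and limma-voom with sample weights called 2 lower, against 0.609%. Among the 12 regulators of proteasome genes, Nfe2l1 had the smallest p. It encodes NRF1, the factor that raises proteasome gene transcription when proteasome activity falls short. Nfe2l1 had 91.5, 107 and 62.3 CPM in glycerol against 38.2, 29.7 and 25.0 CPM in glycerol+melatonin, with no overlap. Its log2 fold change was -1.49 ± 0.24 (edgeR adjusted p = 0.07883), with DESeq2 at -1.50 (adjusted p = 5.839e-06) and limma-voom with sample weights at -1.54 (adjusted p = 0.03162). Over 18 other settings it lay between -1.68 and -1.27, with adjusted p from 5.839e-06 to 0.2478. The other 2 regulators with the smallest p were small MAF partners, Mafg at 0.41 ± 0.15 (edgeR adjusted p = 0.1977) and Maff at 0.62 ± 0.31 (edgeR adjusted p = 0.3140).

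Ubiquitin shuttles, most of which carry tagged proteins to the proteasome, all lay on the lower side: 7 of 7 tested, with a median of -0.53. Rad23b had 146, 140.2 and 111 CPM in glycerol against 87.8, 87.6 and 80.0 CPM in glycerol+melatonin (-0.64 ± 0.16, edgeR adjusted p = 0.1413), and was called under DESeq2 (adjusted p = 0.02275). Ubqln4 had 117.5, 106 and 80.2 CPM against 71.1, 54.5 and 62.5 CPM (-0.69 ± 0.19, edgeR adjusted p = 0.1541), and was called under DESeq2 (adjusted p = 0.03602). Neither overlapped between the groups. Nbr1, an autophagy receptor, was at -0.37 ± 0.15 (edgeR adjusted p = 0.2410). Of the 10 proteasome partners tested, 4 lay above 0 and 6 below (6 and 4 with library size alone). Pomp, the chaperone of late core assembly, had 48.4, 55.6 and 78.8 CPM against 94.1, 93.7 and 81.0 CPM (0.56 ± 0.20, edgeR adjusted p = 0.2007). Sem1, a small lid subunit outside the Psm names, had 42.8, 43.8 and 71.8 CPM against 74.2, 76.1 and 76.6 CPM (0.52 ± 0.21, edgeR adjusted p = 0.2372). Ube3c, a ligase bound to the proteasome, was at -0.65 ± 0.21 (edgeR adjusted p = 0.1855).

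In the list of ubiquitin and activating enzyme genes, 4 of 6 lay above 0. Rps27a, a fusion of ubiquitin with a ribosomal protein, was at 0.76 ± 0.25 (edgeR adjusted p = 0.1863), and Uba1, the main activating enzyme, at -0.28 ± 0.15 (edgeR adjusted p = 0.3268). Of 9 muscle ubiquitin ligases 5 lay above 0 and 4 below. Nedd4 had 152, 116 and 68.2 CPM in glycerol against 40.2, 33.4 and 69.6 CPM in glycerol+melatonin (-1.23 ± 0.35, edgeR adjusted p = 0.1610), where the last treated sample reached the glycerol range. It was called by DESeq2 (adjusted p = 0.0109) and by limma-voom with sample weights (adjusted p = 0.04876). Stub1, the chaperone-linked ligase CHIP, was at 0.44 ± 0.14 (edgeR adjusted p = 0.1817) and Fbxo21 at -0.32 ± 0.14 (edgeR adjusted p = 0.2704). The atrophy ligases Fbxo32 and Trim63, whose values spread widely, were at -0.30 ± 0.34 and 0.13 ± 0.38.

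Genes of MHC class I antigen processing, downstream of the immunoproteasome, had no shared direction under TMM factors: 5 of 11 lay above 0 and 6 below, against 9 and 2 with library size alone. The 3 with the smallest p were Erap1, a peptide trimming enzyme, at -0.31 ± 0.14 (edgeR adjusted p = 0.2717), Tap2 at 0.44 ± 0.21 (edgeR adjusted p = 0.2850) and H2-K1 at 0.37 ± 0.20 (edgeR adjusted p = 0.3422). Among 12 regulators of the interferon response 10 lay above 0 and 2 below, with a median of 0.26. Nlrc5, the transactivator of MHC class I and immunoproteasome genes, had 7.29, 7.51 and 7.03 CPM in glycerol against 9.48, 10.04 and 11.9 CPM in glycerol+melatonin (0.53 ± 0.17, edgeR adjusted p = 0.1810), with no overlap. Irf7, an interferon-induced factor, had 18.5, 11.5 and 18.4 CPM against 25.4, 19.4 and 32.3 CPM (0.67 ± 0.25, edgeR adjusted p = 0.2074), also with no overlap. Ifngr2, a chain of the interferon gamma receptor, had 84.7, 89.4 and 70.2 CPM against 68.4, 50.9 and 49.8 CPM (-0.53 ± 0.18, edgeR adjusted p = 0.1880), with all treated samples below all others.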

How the data were processed

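Raw read counts of genes with Ensembl identifiers, in 1 table of 6 libraries, were what the authors deposited. The submitters' processing notes name HISAT2 2.0, StringTie 1.3.3b, bedtools 2.26.0, DESeq2 1.12.4, Trimmomatic 0.36 and FastQC 0.11.2, and mm10 as the build. The sources used here do not give which tool counted, its annotation or its use of strand. Of the 16289 genes, 16203 had a count in every library and the smallest total was 28. Symbols, positions and lengths came from GENCODE M21 on GRCm38 (16260 genes found). Of the members, 14 share exon bases with another annotated gene, 7 of them with a measured gene, each on the opposite strand.

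The whole table was fitted with edgeR 4.0.16 (R 4.3.3) with TMM factors, filterByExpr and no covariate. The SE is the size of the log2 fold change over the square root of F. CPM are TMM-scaled, and levels between genes are given per kilobase of transcript. No replicates were merged, since their counts differed by 65.9 to 181 in chi-square over its degrees of freedom. Counting error is part of that spread and weighs most for genes with few counts, such as S100a9. Other settings were other scalings and filters, DESeq2 1.42.0, limma-voom (limma 3.58.1), a replicate block, length and GC corrections (splines with 4 degrees of freedom), an adjusted p under 0.1 and leaving out each library. The correction on CCDS lengths was chosen after seeing the data. The scripts were tested on simulated data with known differences put in. Where a gene was set to differ 1.5-fold, edgeR found it in 1.5% of cases and DESeq2 in 10.4%. With 2-fold the shares were 10.4% and 38.8%, and with 4-fold they were 74.2% and 80.3%. False calls numbered 3 among 60 by edgeR and 37 among 123 by DESeq2. A gene that did not pass under edgeR may therefore still differ by 1.5-fold or 2-fold, and a gene called by DESeq2 alone may be a false call.

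Genes described singly were the catalytic pairs, the activators, Psmf1 and the 3 smallest p in each other class and list, of which 1 is not reported here. Psma1, Psma3, Psmb2, Psmd11, Psmc3, Tap1, Fbxo32, Trim63, Dcn and S100a9 are also named, chosen after their values were seen. The members and lists were chosen with earlier results of these data known. Promoters of Psmb1, Psmb2, Psmb7, Psmc3, Psmd3, Psmd7 and Psmg2 were not used here. A comparison of the protein sequences of the catalytic pairs was not run.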

Additional observations from a re-analysis of the deposited data

How the results depend on the processing

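Across the 18 other settings, 24 of the 47 members kept the sign of their estimate and 23 did not. Of the 29 described singly, most of them chosen by their p, 22 kept it. Of the 522 values of those 29, 15 had the other sign and 2 passed the threshold, both for Psmg4. The cause of these shifts was not tested.

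The number of all genes called, 12 in the edgeR fit, was 753 with DESeq2, 199 with limma-voom with sample weights, 7 with the correction for length, 7 with CCDS lengths, 59 at an adjusted p under 0.1, and between 6 and 27 when 1 library was left out. Members called were 1 with DESeq2 and 1 with limma-voom with sample weights. Members at an unadjusted p under 0.05 on the higher side were 4, 5 and 3 with corrections for length, length and GC, and CCDS length, and 3 to 14 when 1 library was left out. On the lower side they were 0 with library size alone, 0 with upper quartile factors, 2 with limma-voom with sample weights and 0 to 1 when 1 library was left out. Genes of the pathway lists called were 4 with DESeq2, 2 with limma-voom with sample weights and 1 at an adjusted p under 0.1.

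With library size alone the medians were 0.36 over all members, 0.41 for the core, 0.13 for the regulatory particle and 0.15 for the activators. The median over all members was 0.0101 with the correction for length, 0.0275 with length and GC, and -0.034 with CCDS length, which also gave -0.034 for the assembly chaperones. Leaving out 1 library moved the activators from -0.101 to 0.0418, the latter without glycerol sample 3.

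Estimates with the other sign were as follows. Psma7 was at -0.0271 with length and GC and -0.0705 with CCDS length. With CCDS length Psmb7 was at -0.0609, Psmc2 at -0.009 and Psme1 at -0.0079. Psmd10 was at 0.0013 with library size alone and ran from -0.3145 to 0.0061 when 1 library was left out, the latter without glycerol sample 3. Psmd9 was at 0.1133 with library size alone and 0.0389 with limma-voom with sample weights. Leaving out 1 library it ran from -0.1841 to 0.0756, and it was above 0 without glycerol sample 3 and without glycerol+melatonin sample 3. Psmf1 was at 0.142 with library size alone, 0.0167 with length, 0.0338 with length and GC, and 0.0416 with CCDS length.

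Same-numbered samples of the groups did not deviate together (correlations of -0.01, -0.011 and -0.049). Differently numbered samples ran from -0.13 to 0.131. Such correlations cannot show whether samples were paired or shared a batch, which the sources used here do not give. With a replicate block 0 genes were called in all, and 8 members on the higher and 0 on the lower side had an unadjusted p under 0.05.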
